A study of Mus musculus with 8 samples.

Results

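The 8 mouse genes for ephrin ligands, Efna1 to Efna5 and Efnb1 to Efnb3, were followed between 2 regions of the embryonic head mesenchyme. They were picked by symbol, and all 8 were found among the 23420 genes of the table. The tissue came from wild type C57BL/6 embryos at E12.5, from which overlying ectoderm and brain had been taken off after dispase, and the groups differ by the region dissected. Early migrating mesenchyme (EMM) and supraorbital mesenchyme (SOM) had 4 libraries each, and every library was made from tissue of 4 to 5 embryos combined. No source says whether the pools came from separate litters, so p-values measure the spread between these pools, which may be partly technical.

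Ephrins are membrane-bound ligands of the Eph receptor tyrosine kinases. Ephrin-A proteins are held in the membrane by a lipid anchor, whereas ephrin-B proteins span it and have a cytoplasmic tail, and both can signal back into their own cell while they activate Eph receptors on a neighbour. The pathway keeps cell populations apart at tissue boundaries and guides axons, vessels and neural crest cells. In the skull, loss of EFNB1 causes craniofrontonasal syndrome, and ephrin-A2, ephrin-A4 and EphA4 have been studied at the coronal suture, also in Twist1 mutants.

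The ephrin-B genes Efnb1 and Efnb2 and the ephrin-A gene Efna5 were higher in EMM, and the ephrin-A genes Efna1, Efna2, Efna3 and Efna4 were higher in SOM. Efnb2 had the largest difference, 4.18-fold, followed by Efnb1 at 2.43-fold, while the 5 called ephrin-A genes differed by 1.52-fold to 1.77-fold. Efnb3 did not pass the test. All 8 genes passed the filter on low values, 7 were called by limma at an adjusted p below 0.05 over all tested genes, and the same 7 had no overlap between the 4 EMM and the 4 SOM libraries. These counts stand beside a wide background, since 72.1% of the 14249 tested genes were called, 36.0% higher in SOM and 36.1% higher in EMM, and 66.1% had groups that did not overlap. Read against that background, a call on 7 of 8 ligands does not by itself set the family apart. The values below are normalized counts, that is reads divided by a scaling factor of each library, and differences are SOM minus EMM on the log2(normalized count + 1) scale. In tissue measured in bulk, fewer cells of a type and less RNA per cell cannot be told apart.

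**Figure D1:**
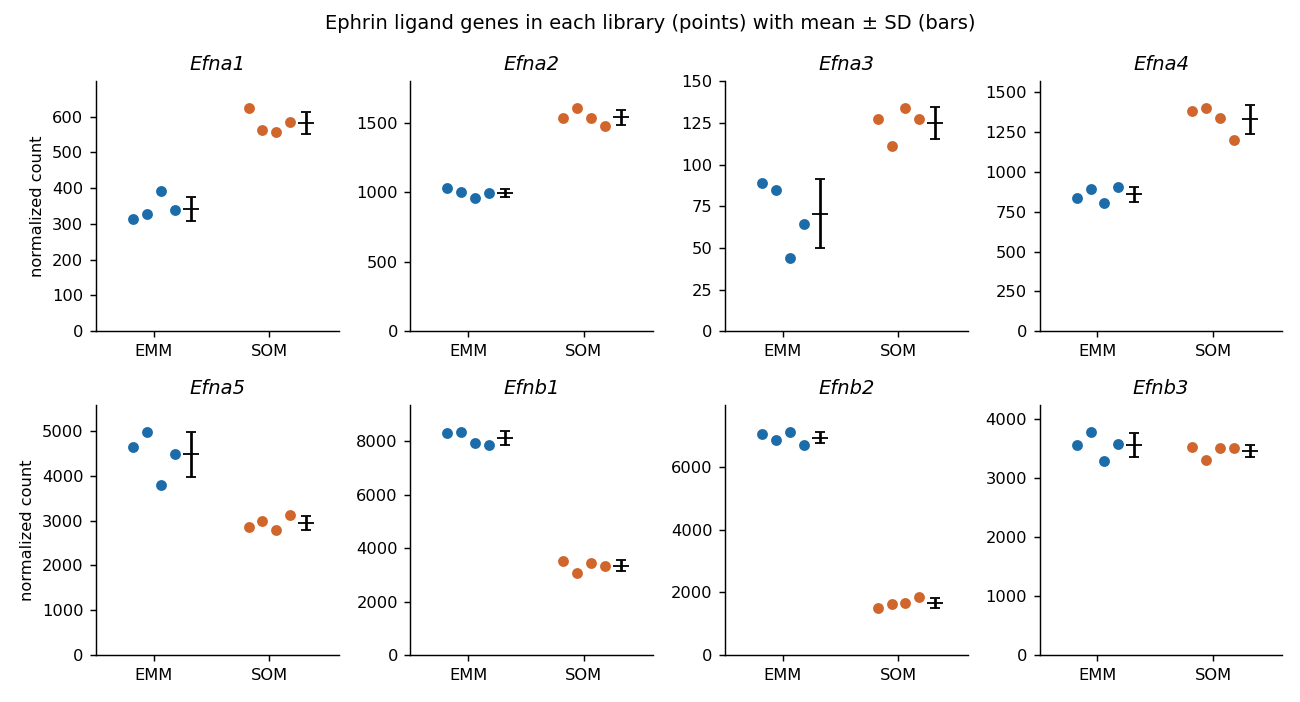
Normalized count of each ephrin ligand gene (vertical axis, from 0) in the 4 EMM and 4 SOM libraries (points), with the mean and SD of each group (bars). The EMM and SOM points are apart for every gene except Efnb3.

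The read totals and the cell type markers of the libraries are given beside these values. Libraries held 12703844 to 22440232 gene-assigned reads in EMM and 16765416 to 33694331 in SOM, and a single ephrin gene had between 42 and 8144 reads in a library. All 11 markers of head mesenchyme were measured, 5 higher in each group, with sums of 879113 to 1017087 in EMM and 369651 to 427158 in SOM. The collagen genes Col1a1, Col1a2 and Col3a1 made up most of these sums, and without them, an alternative chosen after seeing the data, the list stood at 81431 to 86805 in EMM and 92425 to 99930 in SOM. Pdgfra was higher in EMM by 0.40 on the log2 scale, and Prrx1, Prrx2, Twist1, Twist2 and Vim were higher in SOM by 0.12 to 1.04. Markers of other cell types differed between the groups as well, judged by the sum of each list. All 10 macrophage genes were higher in EMM (sums of 10616 to 13264 against 2577 to 2931), as were 9 of 10 pericyte and smooth muscle genes (66362 to 74091 against 15326 to 17899) and 8 of 12 endothelial genes (20968 to 27034 against 16091 to 18941). The neural crest glia genes were higher in SOM in 7 of 8 cases (sums of 1143 to 1305 against 224 to 268). Foxd3 was at 0 in EMM and passed the filter on low values only through SOM. Of 9 measured neuron genes 5 were higher in SOM and 3 in EMM (sums of 3217 to 3450 against 1477 to 1945). Of 9 measured surface ectoderm genes the test called 2 toward EMM and none toward SOM (sums of 769 to 1075 in EMM against 269 to 499.5 in SOM), with a median difference of 0.99, opposite in sign to the sums. Of 5 measured brain progenitor genes 3 were higher in EMM and 1 in SOM (7663 to 8984 against 3397 to 3582), most of it from Nes, while Pax6, Sox1, Sox3, Hes5 and Neurog2 did not reach the filter. The part of these cell types in the ephrin differences was not tested.

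Efnb2 encodes ephrin-B2, known as a marker of arterial endothelium and as a ligand of EphB4, and it is also made by mesenchyme and neural crest. On the mm10 build it lies on chromosome 8 from 8617434 to 8661242, on the minus strand. EMM replicates 1 to 4 held 7051, 6879, 7142 and 6725 normalized counts of Efnb2. SOM replicates 1 to 4 held 1499.7, 1628, 1660.1 and 1857. The highest SOM library was thus well under the lowest EMM library, and the means were 6949 ± 185 and 1661 ± 148 (SD, n = 4). The difference was -2.07 on the log2 scale (SE 0.06, limma adjusted p = 5.03e-14), and 4.50% of the tested genes had a larger absolute difference. In the authors' deposited table, in which positive values mean higher in EMM, Efnb2 has a log2 fold change of 2.05 with an adjusted p of 3.97e-237. Arterial endothelial markers were read beside Efnb2. Of 7 such genes, 5 were higher in SOM, none in EMM and 2 did not pass, and the summed list stood at 695 to 1904 in EMM and 2297 to 3034 in SOM. Dll4, an arterial Notch ligand, had 87.2 ± 56.4 in EMM and 338 ± 30.1 in SOM, and the arterial factor gene Hey1 had 84.7 ± 22.5 and 250.3 ± 13.5. The summed lists of pericytes and smooth muscle and of endothelium were higher in EMM, as given above. The part of any of these cells in the Efnb2 difference was not tested.

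Efnb1 encodes ephrin-B1, a boundary ligand of the neural crest, and lies on the X chromosome from 99136130 to 99148991, on the plus strand. It held 8323, 8367, 7943 and 7852 normalized counts in EMM replicates 1 to 4. In SOM replicates 1 to 4 it held 3528, 3052, 3426 and 3348. All SOM libraries were below all EMM libraries, at means of 3339 ± 205 and 8121 ± 262 (SD, n = 4), with a difference of -1.28 (SE 0.05, limma adjusted p = 3.02e-12). Absolute differences larger than this were found in 11.4% of the tested genes. The labels do not give the sex of the embryos. Xist, the transcript of the inactive X chromosome, was below 10 in every library of both groups. Of 4 Y-linked genes, Eif2s3y (817 to 973 in EMM and 761 to 888 in SOM), Kdm5d and Uty overlapped between the groups, and Ddx3y was higher in every EMM library (1056 to 1310 against 695 to 821). Their part in the Efnb1 difference was not tested.

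Efnb3, the gene of ephrin-B3, a ligand best known from axon guidance at the midline, lies on chromosome 11 from 69554092 to 69560205. It had 3558, 3785, 3293 and 3575 normalized counts in EMM and 3514, 3306, 3507 and 3503 in SOM, in the order of the replicates. The groups overlapped. The difference was -0.04, with a 95% confidence interval of -0.14 to 0.07 (limma adjusted p = 0.509). The interval leaves out differences of the size seen for Efnb1 and Efnb2.

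The starts of the genes that carry these results are printed below for a reader who wants to look at the sequence around them. The 300 bases run from 250 before to 50 after the annotated start, from RefSeq on GRCm38.p6, the assembly that mm10 names, and 7 of the 8 ephrin genes matched an entry. Efnb2 and Efnb1 are shown as the ligands with the largest differences toward EMM, and Efna2 and Efna4 as the ephrin-A ligands known from suture work. Capitals mark CCAAT and GGGCGG, searched on both strands, so that ATTGG and CCGCCC are marked too.
Efnb2, chr8:8661193-8661492, minus strand: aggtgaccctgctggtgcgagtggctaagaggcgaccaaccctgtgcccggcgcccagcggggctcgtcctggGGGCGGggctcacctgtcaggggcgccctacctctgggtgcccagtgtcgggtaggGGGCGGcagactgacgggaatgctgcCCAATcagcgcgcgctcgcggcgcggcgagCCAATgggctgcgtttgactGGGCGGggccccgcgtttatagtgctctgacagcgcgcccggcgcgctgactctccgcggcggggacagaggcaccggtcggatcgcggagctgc
Efnb1, chrX:99135811-99136110, plus strand: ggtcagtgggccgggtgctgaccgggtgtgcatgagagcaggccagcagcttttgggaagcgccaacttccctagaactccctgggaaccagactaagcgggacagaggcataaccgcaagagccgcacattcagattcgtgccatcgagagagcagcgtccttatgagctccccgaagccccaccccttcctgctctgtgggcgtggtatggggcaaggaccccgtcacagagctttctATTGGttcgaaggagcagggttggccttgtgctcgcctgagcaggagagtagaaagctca
Efna2, chr10:80179232-80179531, plus strand: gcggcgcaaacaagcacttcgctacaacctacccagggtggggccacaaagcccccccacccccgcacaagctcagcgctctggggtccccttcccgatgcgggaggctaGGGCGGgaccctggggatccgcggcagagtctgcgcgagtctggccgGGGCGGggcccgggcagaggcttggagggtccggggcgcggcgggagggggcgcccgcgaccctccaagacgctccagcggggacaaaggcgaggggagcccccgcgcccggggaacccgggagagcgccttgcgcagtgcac
Efna4, chr3:89337979-89338278, minus strand: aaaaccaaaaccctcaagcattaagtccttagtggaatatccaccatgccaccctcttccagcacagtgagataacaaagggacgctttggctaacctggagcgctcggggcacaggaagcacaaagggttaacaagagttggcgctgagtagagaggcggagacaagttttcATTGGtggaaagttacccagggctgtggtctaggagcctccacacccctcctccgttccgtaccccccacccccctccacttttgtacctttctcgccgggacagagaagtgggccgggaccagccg

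Of the 32851 promoter windows in the same table, 37.4% hold CCAAT and 35.7% hold GGGCGG. The Efnb2 window holds 2 CCAAT and 3 GGGCGG matches. Its content of G and C is 72.3%, against a median of 52.7% over all windows. The windows of the other matched ephrin genes also lie above that median, from 55.7% in Efna4 to 74.7% in Efna2. The Efnb1 and Efna4 windows each hold 1 CCAAT and no GGGCGG, and the Efna2 window holds 2 GGGCGG and no CCAAT. Ephrin genes on either side of the comparison thus share these letters, and a match describes the window only. CANNTG, the core letters bound by Twist1 and other bHLH factors, was searched on both strands as well and was found in 72.3% of all windows. Among the 7 matched ephrin genes it was found in 2, namely Efnb2 with 1 match and Efna3 with 2.

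Among the ephrin-A genes, Efna5 encodes ephrin-A5, a repulsive cue of retinal and other axons. It spans 277134 bases of chromosome 17, from 62604184 to 62881317. In EMM replicates 1 to 4 it held 4642, 4990.3, 3798 and 4479 normalized counts. The SOM libraries held 2857, 2988, 2799 and 3137. EMM replicate 3 was the lowest of its group and still above every SOM library. The difference was -0.60 (SE 0.07, limma adjusted p = 3.71e-06), a 1.52-fold higher mean in EMM (4477 ± 501 against 2945 ± 150, SD, n = 4). Efna5 was the only ephrin-A gene called higher in EMM.

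Efna2 encodes ephrin-A2, which with ephrin-A5 guides retinal axons, and lies on chromosome 10 from 80179482 to 80190010. It stood at 1031, 1007, 958 and 994 normalized counts in EMM and at 1539, 1610.0, 1539 and 1478 in SOM, in replicate order. The spread within each group was small, at 3.08% and 3.51% of the mean, and the SOM libraries were all higher. The difference was 0.63 (SE 0.05, limma adjusted p = 1.80e-08). Efna4, the gene of ephrin-A4, had 835, 891, 807 and 909 in EMM and 1380, 1403, 1337 and 1201 in SOM. Its difference was also 0.63 (SE 0.06, limma adjusted p = 1.75e-07), and its groups did not overlap. Twist1 itself stood at 6994 ± 244 in EMM and 8744 ± 956 in SOM.

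Efna1 encodes ephrin-A1, a ligand of EphA2 known from endothelium and epithelia. Its normalized counts were 313, 327, 391 and 339 in EMM and 625, 564, 558 and 584 in SOM. All SOM libraries were higher (583 ± 30.1 against 343 ± 34.1, SD, n = 4), and the difference was 0.77 (SE 0.08, limma adjusted p = 2.57e-07). EMM replicate 3 was the highest EMM library for Efna1 and also for the summed arterial markers, at 1904 against 695, 709 and 731 in the others. That library was also the lowest EMM library for Efna2, Efna3, Efna4, Efna5 and Efnb3. Without it the difference of Efna1 was 0.83. The summed endothelial list was higher in every EMM library than in any SOM library. The part of endothelial or arterial cells in the Efna1 difference was not tested.

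Efna3, the gene of ephrin-A3, was the lowest member of the family. It held 88.9, 84.9, 43.9 and 64.6 normalized counts in EMM, from 42 to 87 reads a library, and 127, 111, 134 and 128 in SOM, from 101 to 210 reads. The groups did not overlap, although EMM varied by 29.4% of its mean, where counting alone gives 13.8%. The difference was 0.86 (SE 0.19, limma adjusted p = 0.000785), the least precise of the family, and without EMM replicate 3 it was 0.66. For the 5 ephrin-A genes, between 20.1% and 32.1% of the tested genes had a larger absolute difference. Efna3 shares 344 exonic bases with the antisense gene Gm15998, and Efna4 shares 168 with the antisense gene 4731419I09Rik. No source says whether counting used the strand, so reads of these pairs may not be told apart.

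**Figure D2:**
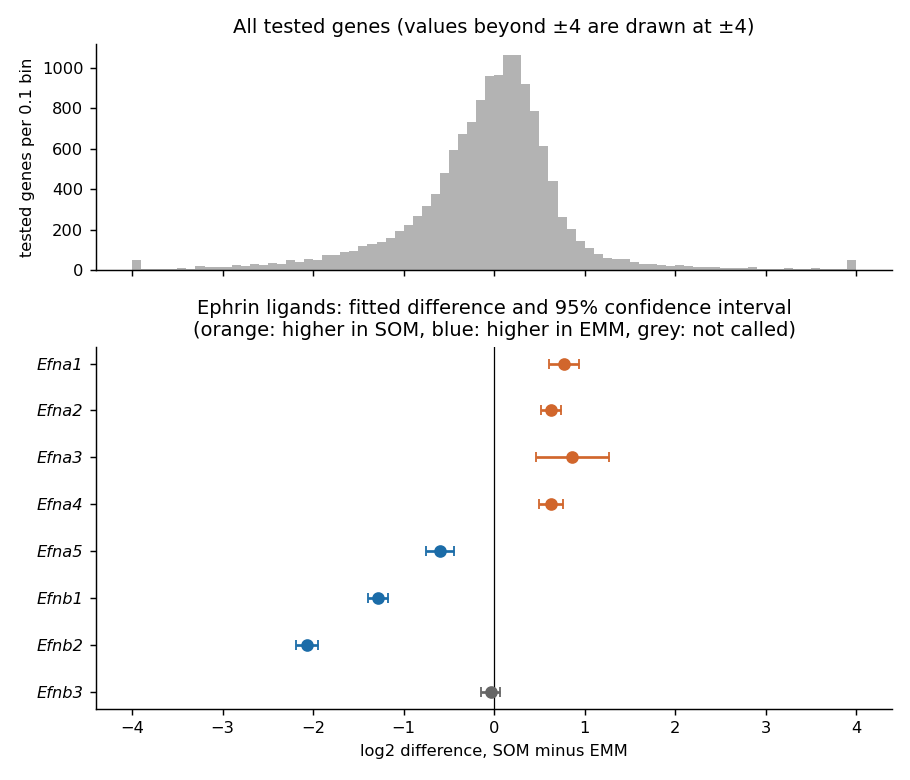
Top, number of tested genes (vertical axis) by log2 difference, SOM minus EMM (horizontal axis). Bottom, the fitted difference of each ephrin ligand gene on the same axis with its 95% confidence interval: Efna1 to Efna4 lie between 0.63 and 0.86, Efna5, Efnb1 and Efnb2 at -0.60, -1.28 and -2.07, and the interval of Efnb3 spans 0.

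To compare genes with one another, normalized counts were divided by the exonic length of each gene in kilobases (kb). On that scale of levels Efnb1 led in EMM with 2353 ± 75.8 per kb (SD, n = 4), above 97.4% of the 13396 tested genes with a length. Efnb3 (1116 ± 63.3), Efna5 (1110.5 ± 124) and Efnb2 (1014 ± 27.0) followed with overlapping libraries between neighbours in the order. Efna4 (538 ± 29.7), Efna2 (468 ± 14.4), Efna1 (187 ± 18.6) and Efna3 (29.0 ± 8.52) came next, each apart from its neighbours. In SOM the order of levels per kb was Efnb3 (1086 ± 31.7), Efnb1 (967 ± 59.3), Efna4 (832 ± 56.4), Efna5 (730.4 ± 37.3), Efna2 (723 ± 25.4), Efna1 (318 ± 16.5), Efnb2 (242 ± 21.6) and Efna3 (51.4 ± 3.98). There, Efna4 and Efna5, and Efna5 and Efna2, overlapped as neighbours, and the other neighbours did not. Efnb2 moved from above 92.8% of the genes with a length in EMM to above 67.5% in SOM, whereas Efnb3 stayed above 93.7% and 93.4%. The place of Efnb2 depends on the length used. Its length over all annotated exons is 6855 bases, and its longest single transcript has 4793. With the longest single transcript Efnb2 stood at 1450 per kb in EMM, second after Efnb1, and at 347 in SOM.

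Summed by class on the per kb scale, the 3 ephrin-B genes stood at 4482 ± 123 in EMM and 2296 ± 90.3 in SOM, a 1.95-fold difference of levels. The 5 ephrin-A genes stood at 2333 ± 148 in EMM and 2655 ± 62.9 in SOM, 1.14-fold higher in SOM. The ratio of summed ephrin-B to ephrin-A was 1.93 ± 0.09 in EMM libraries (1.86 to 2.06) and 0.87 ± 0.05 in SOM libraries (0.79 to 0.90). Inside the ephrin-B class, Efnb1 made up 52.5% ± 0.40 of the summed level in EMM and 42.1% ± 1.18 in SOM, Efnb2 made up 22.6% ± 0.86 and 10.6% ± 0.96, and Efnb3 made up 24.9% ± 1.01 and 47.3% ± 0.50. Inside the ephrin-A class, Efna5 made up 47.5% ± 2.43 in EMM and 27.5% ± 1.68 in SOM, while Efna4 went from 23.1% ± 0.97 to 31.3% ± 1.57 and Efna2 from 20.1% ± 0.89 to 27.2% ± 0.50. These sums, ratios and shares depend on the length used, as the place of Efnb2 does. With the longest single transcript, Efnb2 stood above Efnb3 in EMM, at 1450 against 1116 per kb. The sums and shares are a description and were given no test.

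**Figure D3:**
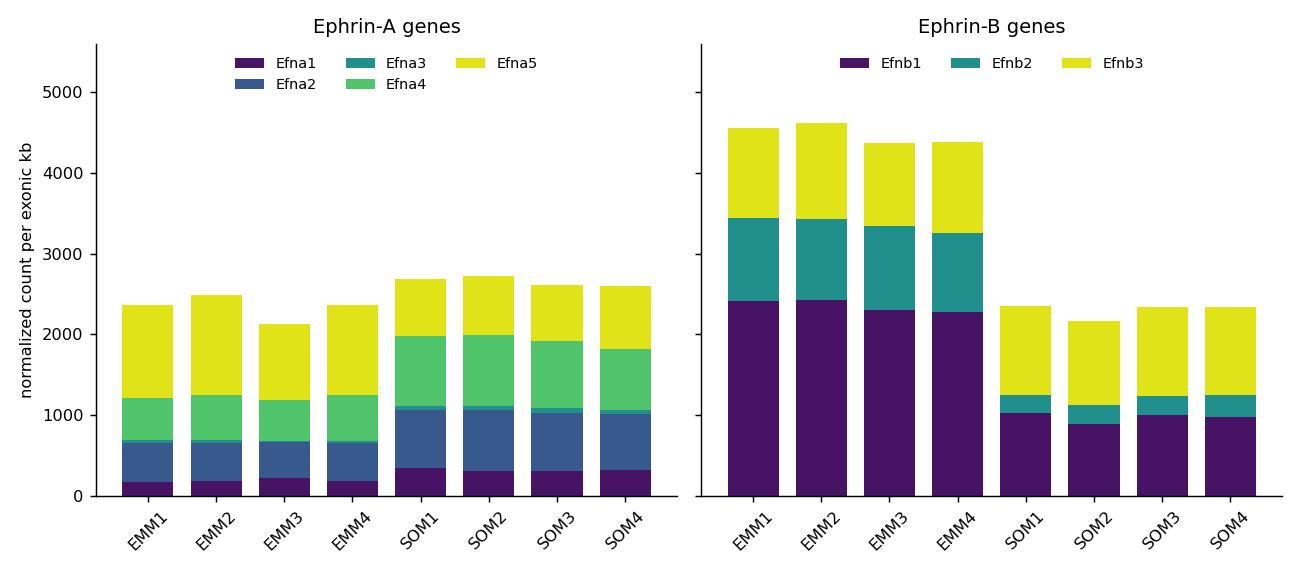
Level of the ephrin-A genes (left) and ephrin-B genes (right) in each library, as normalized counts per exonic kb (vertical axis, from 0), stacked by gene. The ephrin-B bars stand at 4377 to 4616 in EMM and at 2160.4 to 2345 in SOM. The ephrin-A bars stand at 2128 to 2481 in EMM and at 2594 to 2728 in SOM.

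The ratio of a pair of genes within the same library does not depend on the scaling factor of that library. All 28 pairs of ephrin genes were compared in this way. The 6 pairs among Efna1, Efna2, Efna3 and Efna4 overlapped between EMM and SOM, with shifts of the log2 ratio of at most 0.25. Efna2 to Efna4 had a mean log2 ratio of 0.21 in both groups, and the log2 ratio of Efna1 to Efna2 was -1.55 in EMM and -1.40 in SOM. The other 22 pairs, each with Efna5 or an ephrin-B gene in it, did not overlap, and their shifts ran from 0.56 to 2.94 in size. This split follows from the differences of the single genes given above, and 66.1% of single tested genes had groups that did not overlap. Efnb1 and Efnb2, both higher in EMM, did not move in a fixed ratio, since the log2 ratio of Efnb1 to Efnb2 was 0.22 in EMM and 1.01 in SOM. Overlap in 4 libraries a group does not show that a ratio is equal.

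**Figure D4:**
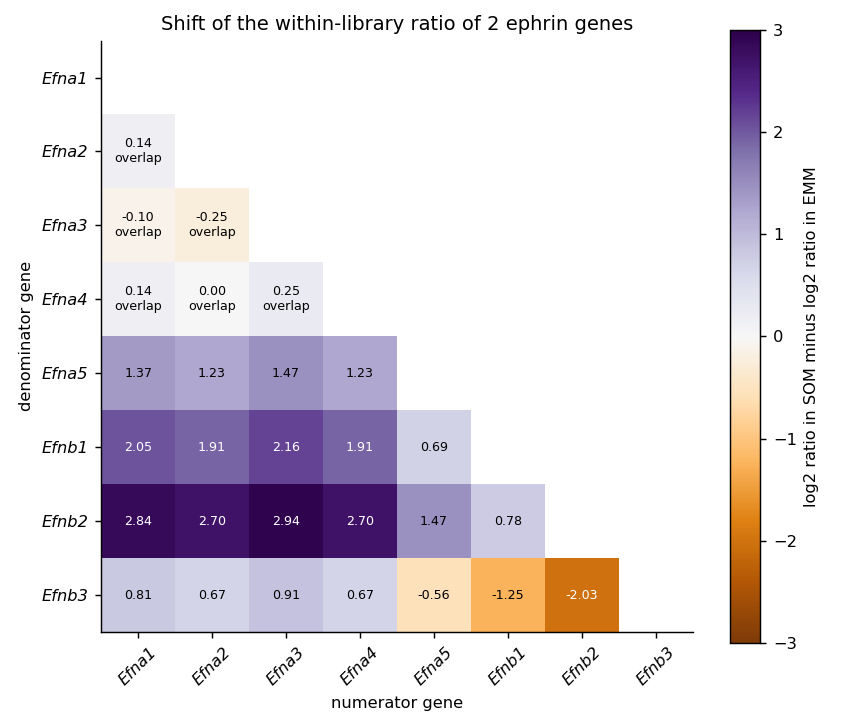
Shift of the log2 ratio of each pair of ephrin genes between SOM and EMM (colour and number), with the numerator gene on the horizontal and the denominator gene on the vertical axis. Pairs marked "overlap" had overlapping EMM and SOM libraries, and these are the 6 pairs among Efna1 to Efna4.

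Efna1, Efna3 and Efna4 are neighbours on chromosome 3, all on the minus strand. Efna1 runs from 89271733 to 89281142, Efna3 from 89313899 to 89322965 and Efna4 from 89333390 to 89338028, so that the 3 genes lie within 66.3 kb. Efna2, which had a difference of like size, lies on another chromosome. The genes around the cluster were looked at after the ephrin values had been seen, and the part of position in the ephrin differences was not tested. Of 20 other tested genes within 100 kb of the cluster, 7 were called toward SOM, 9 toward EMM and 4 in neither direction (median difference -0.07). Over all tested genes, 72.1% were called. Among those toward EMM near the cluster, Gm15417 was low, at 13.1 ± 2.50 in EMM and 4.64 ± 2.34 in SOM. The nearest tested genes on each side had the opposite direction to the ephrins: Slc50a1 stood at 850 ± 47.9 in EMM and 690 ± 50.7 in SOM, a difference of -0.30, and Adam15 at 2307 ± 65.2 and 1396 ± 117, a difference of -0.73 (limma adjusted p = 0.000769 and 1.56e-08).

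**Figure D5:**
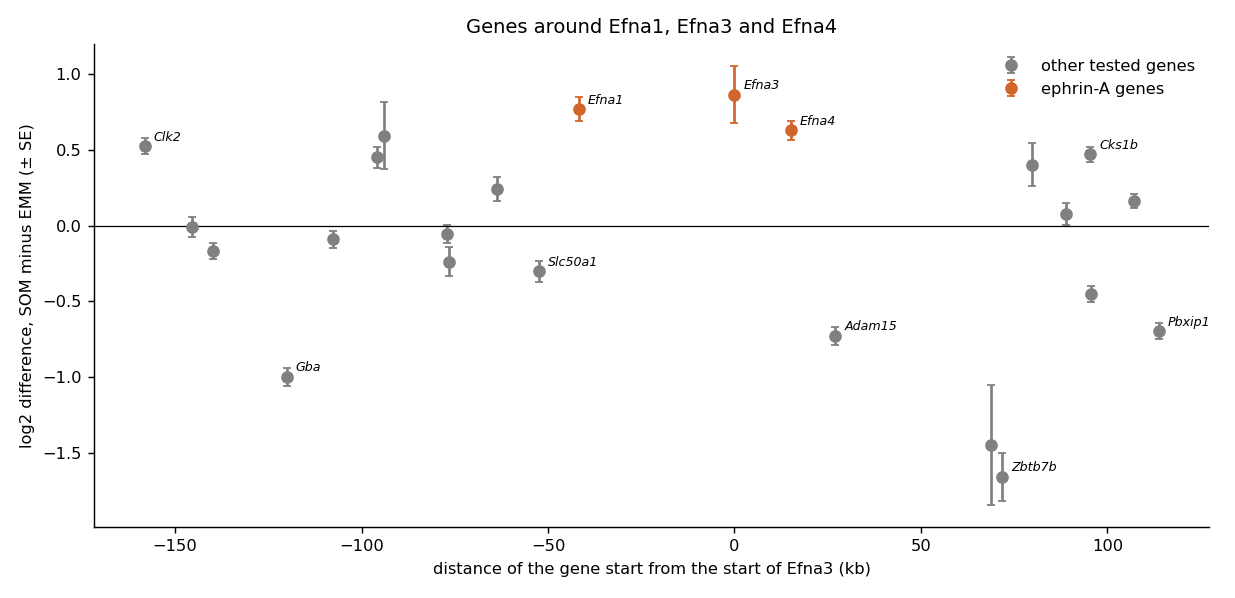
Log2 difference, SOM minus EMM, with its SE (vertical axis) of the tested genes around Efna1, Efna3 and Efna4, by the distance of the gene start from that of Efna3 in kb (horizontal axis). The 3 ephrin genes (orange) lie above 0, and Slc50a1 and Adam15 on either side lie below 0.

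The receptors that ephrins bind were given by class, as EphA receptors mostly bind ephrin-A, EphB receptors mostly bind ephrin-B, and EphA4 binds both. Of 14 Eph receptor genes, 12 passed the filter. The test called 6 of these toward EMM and 1 toward SOM and left 5 uncalled. Their median difference was -0.31, beside 0.01 over all tested genes. Somewhat fewer of them were called than the 72.1% of all tested genes would give, a small gap for 12 genes. This share of all tested genes, with 36.1% toward EMM and 36.0% toward SOM, is also the background for the counts of partners, proteases and co-receptors below. The largest differences were in Epha7 (10599 ± 572 in EMM, 1087 ± 118 in SOM), Epha5 (470 ± 77.8 and 58.1 ± 9.72) and Epha3 (1115 ± 67.0 and 207 ± 42.1), at -3.29, -2.99 and -2.44. Ephb3, an ephrin-B receptor, was the receptor higher in SOM, at 5455 ± 189.5 against 1923 ± 104, or 2.84-fold (limma adjusted p = 4.07e-13). Ephb2 was higher in EMM, at -0.52. Epha4 (1869 ± 114 and 1845 ± 292) and Ephb4 (6106 ± 161 and 5723 ± 405) did not pass, with limma adjusted p of 0.795 and 0.112. Without the filter, all 14 receptors were tested and 2 were called toward SOM. Epha6 and Epha10, the receptors under the filter, stood at 13.6 or less in every library, and Epha6 was at 0 in EMM.

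Set beside the ligands, the summed level per kb of the EphA receptors was 1641 ± 89.5 in EMM and 486 ± 43.1 in SOM, a 3.38-fold difference, and that of the EphB receptors was 2216 ± 66.3 and 2574 ± 101. The group difference of each receptor sum depended strongly on a single gene, though that of the EphA sum kept its direction. Without Epha7 the EphA sum was 569 ± 35.2 in EMM and 376 ± 40.1 in SOM, or 1.51-fold, and without Ephb3 the EphB sum turned, at 1926 ± 58.5 and 1752 ± 102, with groups that overlapped. Leaving out these genes was chosen after seeing the data. For a few pairs picked after the values were seen, the log2 ratio of ligand to receptor per kb was followed within libraries. Efnb2 to Ephb4 went from -0.38 ± 0.06 in EMM to -2.35 ± 0.07 in SOM. Efnb1 to Ephb3 went from 3.02 ± 0.07 to 0.23 ± 0.08. Efna5 to Epha7 went the other way, from 0.04 ± 0.19 to 2.74 ± 0.16. The shifts were smaller for Efnb1 to Ephb2, at -0.77, and for Efna4 and Efna2 to Epha4, each at 0.66. The lengths used set the size of each ratio but not its shift between the groups. None of these 6 pairs overlapped between the groups. Each pair holds a ligand that was already called, so this follows mainly from the differences of single genes. Of single tested genes, 66.1% had groups that did not overlap.

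Partners of the signal were read from lists chosen by role. Of 21 partners that act in the cell with the Eph receptor, 12 were called toward EMM, 4 toward SOM and 5 in neither direction (median difference -0.14). The called share was close to that of all tested genes, with a larger part of it toward EMM. The counts of these lists were given no test. The exchange factor gene Ngef (ephexin) had a difference of -2.13 at a low level (24.4 ± 5.38 in EMM and 4.97 ± 1.97 in SOM), and the adaptor gene Sla one of -1.47. Ngef passed the filter on low values only through EMM, since its SOM libraries were all below 10. Chn1, which encodes the Rac regulator chimaerin downstream of EphA4, was higher in SOM by 0.56, and the Rac activator gene Tiam1 by 0.33. Of 16 partners that act in the cell with the ephrin, 9 were called toward EMM, 5 toward SOM and 2 in neither direction (median difference -0.17). The share called toward SOM was near the background of 36.0%, and that toward EMM was above its background of 36.1%. The scaffold gene Grip1, which binds the tail of ephrin-B, had 785 ± 40.4 in EMM and 315 ± 53.3 in SOM, a difference of -1.33, and Stat3 one of -1.07. Its relative Grip2 was higher in SOM by 0.86, at 30.7 ± 2.29 against 18.1 ± 8.41, and Dvl2, a scaffold gene of WNT signalling that also binds ephrin-B, by 0.38. Without EMM replicate 3, and also without SOM replicate 1, 3 of these partners were higher in SOM.

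Proteases that cut ephrins or their receptors were read against the same background. Of 12 genes in the list 11 passed the filter, of which 9 were higher in EMM and 2 in SOM (median difference -0.45). Adam12 (2138 to 2676 in EMM, 579 to 607 in SOM) and Adam19 (6245 to 7235 and 2153 to 2389), both metalloproteases of mesenchyme, had differences of -1.95 and -1.59. Adam10, which sheds ephrin-A ligands after they bind their receptor, stood at 4664 ± 234 and 2399 ± 226, a difference of -0.96. Mmp9, a gelatinase that has been linked to cutting of EphB receptors, was higher in SOM by 1.51, and Psenen, a subunit gene of gamma-secretase, by 0.35. Of 5 genes for receptors that work beside ephrin-A, 4 passed the filter. Gfra1, the gene of a GDNF receptor, was higher in SOM by 1.41 and Fgfr1 by 0.44, Ntrk2 was higher in EMM at -2.79, and Ngfr did not pass.

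Genes with the most similar profile were sought for each ligand by the root mean square difference of log2 values over the 8 libraries, each centred on its mean. For Efnb2 these were Lama2, Cdon and Egflam, at 0.05, 0.06 and 0.06. For Efnb1 they were Lgmn, Stk39 and Ehd4, at 0.05, 0.05 and 0.06. The closest for Efna5 were Amigo2 (0.04), Armcx3 (0.06) and Rfk (0.07). For Efna2 they were Nit2, Srsf6 and Gtf2h3 and for Efna4 Tsr3, Rps25 and Rps12, all at 0.02 to 0.04. Efna1 was closest to Clspn, Lig1 and Mcm5 (0.06 to 0.07), and Efna3, the gene with the fewest reads, had none closer than Aspn at 0.14. For Efnb3 the closest were Cnp, Cnpy4 and Ahcyl1, at 0.03. With libraries in 2 groups, such likeness follows mainly from a similar difference between the groups.

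The call for each ligand was the same in the authors' deposited table, where 7 of the 8 had an adjusted p below 0.05 beside 57.2% of the 17851 genes with such a value, and Efnb3 had 0.590. Across the 18 other settings tried, none of the 8 ligands changed direction or call, including the fit that left out a trio of libraries, EMM replicates 2 and 3 with SOM replicate 4. The difference of Efna3 moved most, between 0.66 and 0.99.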

How the data were processed

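RNA of 4 EMM and 4 SOM pools was sequenced from TruSeq libraries, per the labels' protocols. Of software, the submitters' notes on processing list bcl2fastq, STAR and DESeq2, with no version, and of builds mm10. The sources used here give no annotation, read counter or strand setting. The signal in the library columns is a normalized count, as deposited by the authors. Within 1 ppm, each value (100%) was a whole number of steps of 1 size per library, as reads divided by a scaling factor give, and division by the step gave reads back. The deposited table also has the authors' log2 fold change, Wald score, p-value and adjusted p-value.

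Genes with at least 10 normalized counts in at least 4 libraries were tested. On log2(normalized count + 1), which understates changes of low genes, limma 3.58.1 (R 4.3.3, trend and robust moderation, all 8 libraries, no covariate) compared SOM with EMM, with Benjamini-Hochberg adjustment over all tested genes and a threshold of 0.05. Lengths and positions came from GENCODE M21. The fit was tested on simulated data. Alternatives were edgeR 4.0.16, DESeq2 1.42.0 and limma-voom on the reads, other scalings, filters and pseudocounts, a replicate block and libraries left out (filter then in 3 libraries, or 2 with 3 left out). On the reads, edgeR called 10310 genes.

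The members and gene lists were chosen with earlier results of these data known. Named genes were all ligands, the 3 receptors and the 2 genes of each partner list with the largest called difference in each direction, and the 3 closest profiles per ligand; other receptors, marker genes and Adam10 were named for their role. Arhgap35 and Adgre1 were found under the older symbols Grlf1 and Emr1. Libraries of a group differed by a chi-square per degree of freedom of 3.72 to 19.0, and none was treated as a duplicate.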

Additional observations from a re-analysis of the deposited data

Results flagged for a closer look

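Efnb3 in SOM was set apart by a single low library. SOM replicate 2 held 3306 normalized counts and the other SOM libraries 3503 to 3514, so the gap to the nearest library made up 0.944 of the range of the group, above Dixon's 95% critical value for a group of 4. SOM replicate 2 lay inside the EMM range of 3293 to 3785. Of the 16 groups of 4 values examined for the ephrin ligands, 1 passed this limit, and chance passes about 1 in 20.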

How the results depend on the processing

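For the 8 ephrin ligands, all 144 refits in 18 alternative settings kept the direction and the side of the threshold of the main values. With 1 library left out, the count of ligands was 4 higher in SOM and 3 higher in EMM in each case. Over all 18 settings, the difference ran from -2.12 to -2.02 for Efnb2, from -1.31 to -1.24 for Efnb1 and from -0.07 to -0.01 for Efnb3. Scaling by TMM or the upper quartile moved the median of all genes by less than 0.1 on the log2 scale, from 0.01 to 0.04 at most.

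Counts changed by over 1.5 times for 3 lists. Eph receptors higher in SOM numbered 2 with no filter on low values against 1. Co-receptors of ephrin-A higher in EMM numbered 2 with the replicate block against 1, the added gene being Ngfr (main difference -0.31, limma adjusted p = 0.160). Partners in the cell with the ephrin that were higher in SOM numbered 3 to 5 with each library left out in turn. The cause was not tested. With the longest transcript as length, levels per kb were 209.9 (EMM) and 357 (SOM) for Efna1, 2493 (EMM) for Efnb1, and 1450 (EMM) and 347 (SOM) for Efnb2. These transcripts are shorter than the union of all exons used otherwise.

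The replicate numbers are shared by EMM and SOM, but the labels do not say that they pair the pools. Same-numbered libraries deviated together with correlations of 0.13, 0.01, 0.04 and -0.02, and 2 of the 4 EMM libraries correlated best with their own number. With the replicate number as a block, 10249 genes were called against 10278 without it, and 4 ephrin ligands were higher in SOM and 3 in EMM. Depth limits Efna3 most, at 42 to 210 reads a library.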
